A study of Mus musculus with 16 samples.

Results

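The 10 genes described here encode 6 C-type lectin receptors of the macrophage surface (Clec4e, Clec4d, Clec4n, Clec7a, Clec5a and Clec12a) and 4 proteins that carry their signal inside the cell (Syk, Card9, Bcl10 and Malt1). They were taken by symbol from the 55359 genes of the count files, and all 10 passed the filter on low counts that left 17190 genes for testing. The series profiled polyadenylated RNA of MPI-2 cells, a mouse macrophage line with features of alveolar macrophages, in 16 libraries. Wild-type cells kept in medium with GM-CSF had been exposed to Mycobacterium abscessus, a fast-growing nontuberculous mycobacterium, or left uninfected, and RNA was taken at day 1 or at day 5. The groups were thus exposed day 1, uninfected day 1, exposed day 5 and uninfected day 5, with 4 replicates each. The labels call the replicates biological, but all come from 1 cell line used over a range of passages, so p-values measure the spread between cultures of that line. No source used here gives the dose, the bacterial strain or the share of cells that took up bacteria, and each value is an average over a whole culture.

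C-type lectin receptors bind carbohydrates and glycolipids of microbial cell walls. Mincle (Clec4e) and its partner MCL (Clec4d) bind trehalose dimycolate, the cord factor of mycobacteria, Dectin-2 (Clec4n) binds mannose-rich glycans, and Dectin-1 (Clec7a) binds fungal beta-glucans. Bound receptors recruit the kinase Syk, either through an adaptor with an activation motif or through a motif in their own tail, and Syk signals through protein kinase C delta to CARD9, which assembles with BCL10 and the paracaspase MALT1 and switches on NF-kB.

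Library totals lay between 46154875 and 81995629 counts, and levels are given as CPM, counts scaled to the size of the library. The markers of the labelled cell type were present: all 12 alveolar macrophage markers and all 9 general macrophage markers averaged at least 1 CPM in each group. The summed alveolar macrophage markers ranged from 8195.0 to 10725.1 CPM in exposed cells at day 5, against 19760.2 to 27366.9 CPM in uninfected cells. By group means the largest part was Chil3, at 2989.6 against 16119.1 CPM, and the other markers went both ways. Itgax averaged 927 against 193 CPM and Car4 1988.0 against 1623.2 CPM, whereas Fabp4 averaged 411 against 858 CPM and Pparg 185 against 383 CPM. The summed general macrophage markers ranged from 11808.1 to 17155.0 CPM in exposed cells at day 5, against 5122.1 to 5676.0 CPM in uninfected cells. Neutrophils also carry several of these receptors, and their summed markers, nearly all S100a8, ranged from 762 to 1049.8 CPM in exposed cells at day 1, against 300 to 391 CPM in uninfected cells, and from 414 to 889 CPM in exposed cells at day 5, against 447 to 613 CPM in uninfected cells. Of the 8 neutrophil markers, 4 averaged at least 1 CPM in exposed cells at day 5, against 3 in uninfected cells. Camp averaged 4.38 CPM in exposed cells at day 5, against 0.057 CPM in uninfected cells, Ngp 3.4 against 0.648 CPM, S100a9 3.94 against 7.28 CPM and Mpo 0.643 against 3.25 CPM. Ly6g averaged 0.374 against 0.0924 CPM and Elane 0.0219 against 0.212 CPM, and Retnlg had 0 counts in all 16 libraries. Summed markers of T and NK cells, B cells and mast cells stayed at or under 0.49 CPM in every library. At day 5 the summed endothelial markers ranged from 5.1 to 8.37 CPM in exposed cells, against 2.51 to 2.91 CPM in uninfected cells. Epithelial markers summed to 14.8 to 24.9 CPM, against 72.7 to 77.1 CPM, and fibroblast ones to 9.43 to 13.2 CPM, against 20.4 to 22.4 CPM. Nearly all of the epithelial sum was Cdh1, at 18 against 71.1 CPM, and of the fibroblast sum Pdgfra, at 11.2 against 20.8 CPM. The endothelial sum was mostly Pecam1, at 3.53 against 2.2 CPM, and Cdh5, at 2.88 against 0.355 CPM. Col1a2 and Cldn5 had 0 counts in all 16 libraries, and Epcam and Sftpc averaged 0 CPM in exposed cells at day 5. Dendritic cell markers summed to 13.8 to 17 CPM in exposed cells, against 8.8 to 9.85 CPM in uninfected cells. Nearly all of this was Zbtb46, at 7.24 against 3.88 CPM, and Batf3, at 7.35 against 5.41 CPM. The part of these marker shifts in the results below was not tested, and in bulk RNA fewer cells of a type and less RNA per cell cannot be told apart.

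At day 1, exposed cells had more RNA of 5 of the 6 receptors, of Syk and of Malt1 than uninfected cells. At day 5 these 7 genes and Bcl10 were higher, led by Clec4e at 39.4-fold, Malt1 at 20-fold and Clec4d at 15.7-fold over uninfected cells, while Clec12a and Card9 were lower. In counts, 7 of the 10 genes were higher at day 1, 0 were lower and 3 did not pass an adjusted p of 0.05 (edgeR quasi-likelihood test, Benjamini-Hochberg over all genes tested). Of all genes tested, 13.4% were called higher and 10.5% lower at day 1. At day 5, 8 of the 10 were called higher and 2 lower, against 28.6% and 28.4% of all genes tested. All 10 genes were higher in every exposed than in every uninfected library at day 1, and 19.6% of all genes tested stood apart in this direction and 19.7% in the other. At day 5, 7 genes stood apart as higher, 1 as lower and 2 overlapped, against 22.3% and 24.2% of all genes tested. The median log2 fold change of the 10 genes was 0.83 at day 1 and 1.47 at day 5, against 0.03 and 0.02 over all genes tested.

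**Figure D1:**
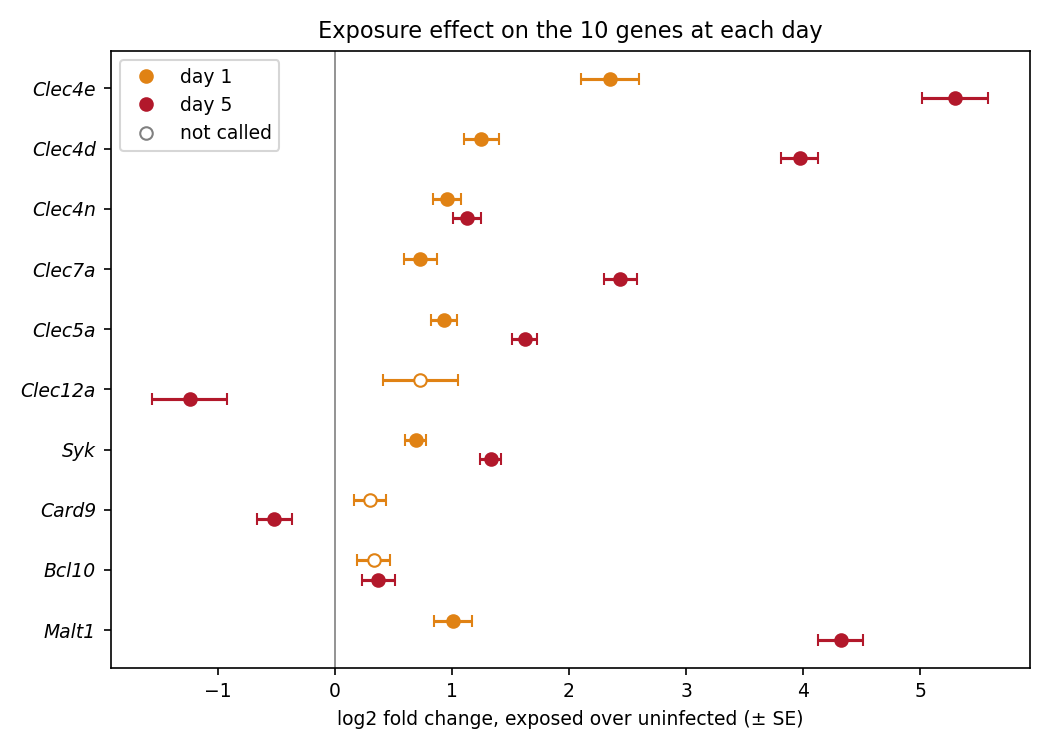
Log2 fold change of the 10 genes, exposed over uninfected, at day 1 (orange) and day 5 (red), with bars of 1 SE from the fit and open points for genes that did not pass the test. Clec4e, Clec4d and Malt1 lie at 5.30, 3.97 and 4.32 at day 5, while Clec12a at -1.24 and Card9 at -0.52 lie left of 0.

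Clec4e and Clec4d lie close together on mouse chromosome 6 and had the largest day 5 effects among the receptors, whereas Clec12a, on the same chromosome, had the opposite direction. The 250 bases before the start of each of these 3 genes are shown because they differ in response although all are receptor genes of the same chromosome. Clec7a and Clec5a, also on chromosome 6, were higher at day 5, and Clec7a lies nearer to Clec12a than Clec4e and Clec4d do. The sequences are from RefSeq, build GRCm38.p6, read 5′ to 3′ on the strand of the gene, at chr6:123289872-123290121 on the minus strand for Clec4e, chr6:123261857-123262106 on the plus strand for Clec4d and chr6:129349994-129350243 on the plus strand for Clec12a. Capitals mark matches to 6 motifs searched on both strands.
Clec4e: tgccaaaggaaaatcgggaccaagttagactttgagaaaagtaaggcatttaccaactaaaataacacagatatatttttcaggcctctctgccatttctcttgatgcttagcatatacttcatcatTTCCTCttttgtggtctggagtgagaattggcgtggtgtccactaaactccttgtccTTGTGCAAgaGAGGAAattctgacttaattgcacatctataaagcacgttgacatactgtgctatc
Clec4d: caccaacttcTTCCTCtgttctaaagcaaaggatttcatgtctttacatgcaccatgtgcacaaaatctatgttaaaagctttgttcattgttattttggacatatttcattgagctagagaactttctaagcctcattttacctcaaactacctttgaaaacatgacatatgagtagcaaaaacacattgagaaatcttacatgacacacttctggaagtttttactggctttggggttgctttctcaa
Clec12a: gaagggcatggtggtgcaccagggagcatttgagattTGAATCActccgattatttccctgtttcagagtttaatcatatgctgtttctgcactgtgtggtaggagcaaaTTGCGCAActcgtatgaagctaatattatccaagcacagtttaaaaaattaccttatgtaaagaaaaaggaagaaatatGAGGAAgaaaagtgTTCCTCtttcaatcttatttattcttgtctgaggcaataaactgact
The motifs searched were kappa-B (GGNNTTNCC), C/EBP (TTGCNNAA), AP-1 (TGANTCA), PU.1 (GAGGAA), the interferon-stimulated response element (GAAANNGAA) and the gamma-activated site (TTCNNNGAA). The Clec4e window held a C/EBP match from base -66 to base -59, counted from the start site, and PU.1 matches at -123 to -118 and at -56 to -51. The Clec4d window held 1 PU.1 match, at -240 to -235, and the Clec12a window held a C/EBP, an AP-1 and a pair of PU.1 matches. The 8 members with a window in the RefSeq table had 10 windows in all. Of these members, 6 held a PU.1 match in at least 1 window and 2 a C/EBP match, and 0 held a kappa-B match. Among all 32817 windows of this length, 23.3% held PU.1, 9.57% C/EBP, 6.75% AP-1, 13.5% kappa-B, 7.01% the gamma-activated site and 7.12% the interferon element. These shares are per window and the member counts per gene, so their units differ. No 2 of these motifs overlapped in the 3 windows shown. A match describes letters only and shows no bound factor.

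Clec4e, encoding Mincle, had 97.2, 103, 118 and 114 CPM in exposed day 1 libraries, against 22.6, 20.5, 19.3 and 22.5 CPM in uninfected day 1 libraries. It reached 459, 1439.8, 684 and 1069.0 CPM in exposed day 5 libraries, against 22.9, 22.9, 20.9 and 25.8 CPM in uninfected day 5 libraries. Every exposed library was above every uninfected library of its day, and the uninfected level hardly differed between days. The log2 fold change was 2.35 ± 0.25 (SE) at day 1 (adjusted p = 3.71e-06) and 5.30 ± 0.28 at day 5 (adjusted p = 9.88e-11), by edgeR. Among exposed day 5 libraries the highest level, in replicate 2, was 62.2 times the uninfected mean and the lowest, in replicate 1, 19.8 times.

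Clec4d, encoding MCL, stood at 34.3, 30.4, 38.6 and 36 CPM in exposed day 1 libraries, against 14.6, 15.2, 14.4 and 14.4 CPM in uninfected day 1 libraries. At day 5 it had 95.1, 187, 123 and 162 CPM in exposed libraries, against 9.11, 8.94, 8.37 and 9.86 CPM in uninfected libraries. The groups did not overlap on either day, and the order of the 4 exposed day 5 libraries was that of Clec4e. It rose by 1.25 ± 0.15 on the log2 scale at day 1 (adjusted p = 7.33e-06, edgeR) and by 3.97 ± 0.16 at day 5 (adjusted p = 1.01e-12, edgeR). It was also lower in uninfected cells at day 5, with a mean of 9.07 ± 0.617 CPM, against 14.6 ± 0.384 CPM at day 1 (SD, n = 4 each, log2 change -0.69 ± 0.15, adjusted p = 0.00351, edgeR). The ratio of Clec4e to Clec4d CPM, which depends on the lengths of both transcripts, was 3.11 ± 0.228 in exposed and 1.45 ± 0.122 in uninfected libraries at day 1, and 6.16 ± 1.25 in exposed and 2.55 ± 0.0554 in uninfected libraries at day 5.

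Clec4n, encoding Dectin-2, was at 47.5, 47, 53.7 and 45 CPM in exposed day 1 libraries and at 24, 26.6, 24.4 and 24.2 CPM in uninfected day 1 libraries. Its day 5 levels were 43.1, 50.2, 61.4 and 38.2 CPM in exposed libraries and 21.8, 21.7, 18.5 and 26.2 CPM in uninfected libraries. Exposed cells thus held about the same level on both days, with no overlap with uninfected cells. The log2 fold change was 0.96 ± 0.12 at day 1 (adjusted p = 1.4e-05) and 1.13 ± 0.12 at day 5 (adjusted p = 2.25e-07), and the difference between days, 0.17 ± 0.17, did not pass the test (adjusted p = 0.474, edgeR).

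Clec7a, encoding Dectin-1, had 338, 355, 356 and 372 CPM in exposed day 1 libraries, against 211, 242, 207 and 195 CPM in uninfected day 1 libraries. At day 5 the exposed libraries had 712, 1120.2, 1302.2 and 867 CPM and the uninfected libraries 188, 180, 165 and 206 CPM. There was no overlap on either day, and the highest exposed day 5 library was replicate 3, not replicate 2 as for Clec4e. The log2 fold change was 0.73 ± 0.14 at day 1 (adjusted p = 0.000853) and 2.44 ± 0.14 at day 5 (adjusted p = 5.93e-11), a 5.41-fold difference at day 5 (edgeR).

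Clec5a encodes MDL-1, a receptor that pairs with the adaptors DAP10 and DAP12. Its levels were 240, 227, 260 and 222 CPM in exposed day 1 libraries, against 122, 128, 121 and 127 CPM in uninfected day 1 libraries. They were 335, 398, 278 and 364 CPM in exposed day 5 libraries, against 128, 121, 99.3 and 99.7 CPM in uninfected day 5 libraries. All exposed libraries were above all uninfected libraries of the same day. The log2 fold change was 0.93 ± 0.11 at day 1 (adjusted p = 3.69e-06) and 1.62 ± 0.11 at day 5 (adjusted p = 2.91e-10), by edgeR.

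Clec12a encodes an inhibitory receptor, MICL, that dampens Syk signalling through a tail with an inhibitory motif, and it was the receptor with the lowest level. It had 3.74, 4.2, 3.35 and 2.82 CPM in exposed day 1 libraries, against 2.15, 2.31, 1.7 and 2.35 CPM in uninfected day 1 libraries. Its day 5 levels were 2.03, 1.02, 4.27 and 1.11 CPM in exposed libraries, against 5.03, 4.34, 5.55 and 4.95 CPM in uninfected libraries. Exposed libraries were all above uninfected libraries at day 1 and all below them at day 5, although exposed day 5 replicate 3 lay just under the lowest uninfected library. The day 1 difference did not pass the test (log2 fold change 0.73 ± 0.32, adjusted p = 0.102), whereas the day 5 difference did (-1.24 ± 0.32, adjusted p = 0.00266), as did the change between days (-1.98 ± 0.45, adjusted p = 0.00233, edgeR). Uninfected cells had more Clec12a at day 5 (4.97 ± 0.493 CPM) than at day 1 (2.13 ± 0.298 CPM, SD, n = 4 each, log2 change 1.22 ± 0.32, adjusted p = 0.0113, edgeR), so its lower exposed level at day 5 was measured against a higher uninfected level. Without exposed day 5 replicate 3 the day 5 difference was -1.83, the widest of the fits that leave out 1 library.

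**Figure D2:**
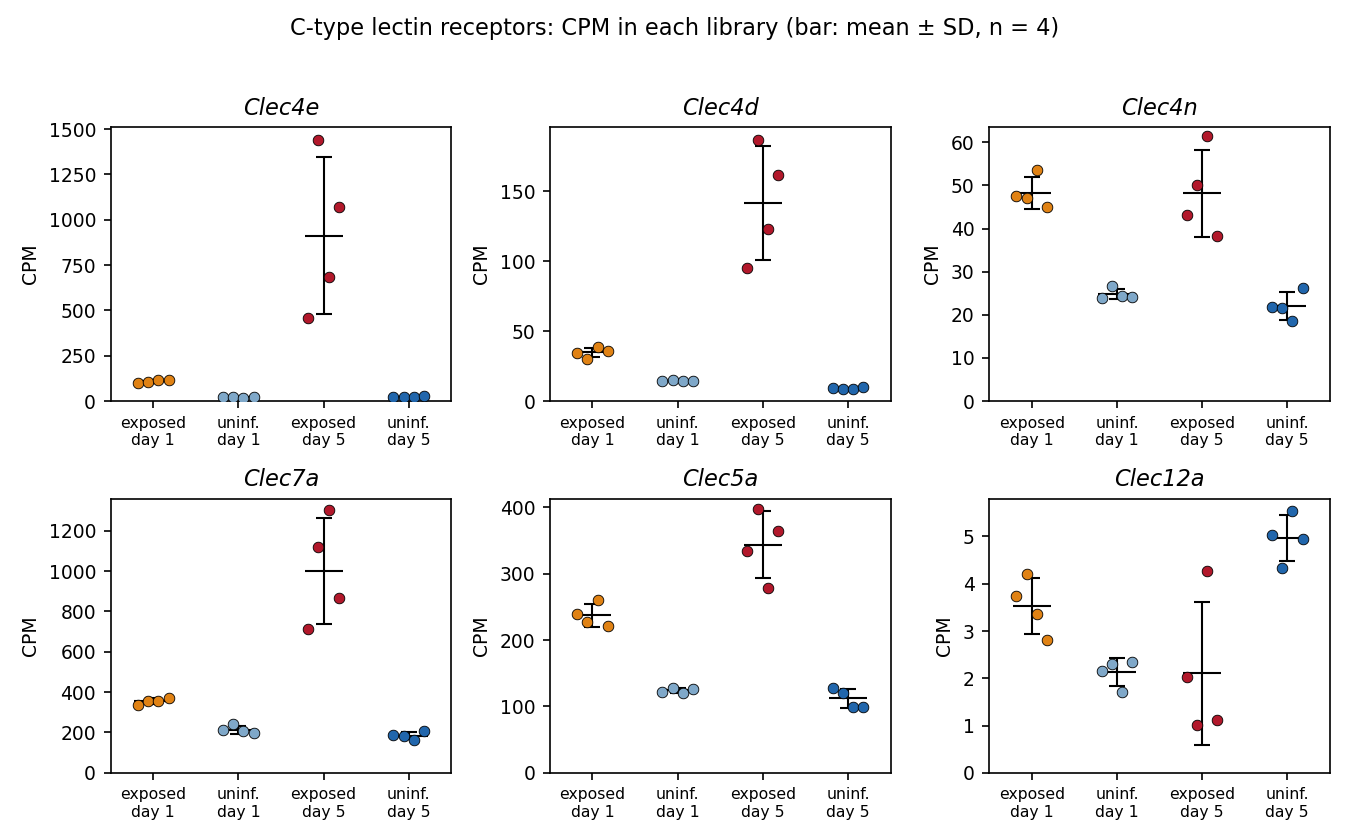
CPM of the 6 receptors in each library, with the mean and 1 SD of each group as bars (n = 4, axes from 0, 1 scale per gene). Exposed libraries lie above uninfected libraries of the same day for Clec4e, Clec4d, Clec4n, Clec7a and Clec5a, and below them for Clec12a at day 5.

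Syk, the kinase that all activating receptors here depend on, was the most abundant of the signalling genes. It had 920, 902, 934 and 970 CPM in exposed day 1 libraries, against 574, 560, 581 and 597 CPM in uninfected day 1 libraries. At day 5 it had 1204.9, 1297.7, 1098.4 and 1310.8 CPM in exposed libraries, against 524, 532, 452 and 445 CPM in uninfected libraries. The groups stood apart on both days, and exposed day 5 libraries varied little among themselves. Syk rose by 0.69 ± 0.09 on the log2 scale at day 1 (adjusted p = 1.24e-05) and by 1.33 ± 0.09 at day 5 (adjusted p = 2.48e-10), a 2.51-fold difference at day 5 (edgeR).

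Card9, the adaptor between the receptors and BCL10, had 51.1, 50.4, 47.8 and 62.2 CPM in exposed day 1 libraries, against 40.7, 40.3, 47.5 and 42.9 CPM in uninfected day 1 libraries. It had 31.3, 20.1, 36.8 and 24.6 CPM in exposed day 5 libraries, against 46, 43.6, 34.7 and 37.3 CPM in uninfected day 5 libraries. The exposed day 5 mean was the lowest of the 4 groups, but replicate 3 overlapped the uninfected libraries. The day 1 difference of 0.30 ± 0.14 did not pass the test (adjusted p = 0.139), and Card9 fell by 0.52 ± 0.15 at day 5 (adjusted p = 0.00529, edgeR). The effect thus differed between days, by -0.82 ± 0.21 (adjusted p = 0.00452, edgeR). Card9 was also lower in exposed cells at day 5 than at day 1, by -0.91 ± 0.15 (adjusted p = 4.64e-05, edgeR). It overlaps 1 other annotated gene, Gm13562 on the opposite strand, which had 133 counts over all libraries.

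Bcl10, which bridges CARD9 and MALT1, had the smallest day 5 effect of the 10 genes. Its levels were 36.9, 36.5, 38.8 and 31.6 CPM in exposed day 1 libraries, against 30.3, 28.9, 28.3 and 27.1 CPM in uninfected day 1 libraries. They were 38.7, 58.7, 29.7 and 48 CPM in exposed day 5 libraries, against 33.3, 33.8, 36 and 32.4 CPM in uninfected day 5 libraries. Day 1 groups did not overlap, but at day 5 replicate 3 was below every uninfected library. The day 1 difference of 0.33 ± 0.14 did not pass the test (adjusted p = 0.0939), and that of day 5, 0.37 ± 0.14, did so narrowly (adjusted p = 0.0285, edgeR). The day 5 call was lost in 6 of 16 alternatives, among them the fit without exposed day 5 replicate 2, which gave 0.19 (adjusted p = 0.152).

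Malt1 encodes the paracaspase that gives the complex both a scaffold and a protease. It had 84.5, 82.3, 93.3 and 132 CPM in exposed day 1 libraries, against 48.9, 48.7, 48.2 and 49.2 CPM in uninfected day 1 libraries. It reached 633, 1083.8, 688 and 1070.6 CPM in exposed day 5 libraries, against 43.5, 46.9, 40.6 and 43.2 CPM in uninfected day 5 libraries. No library of one group came near the other on either day, and uninfected levels were tightly grouped. The log2 fold change was 1.01 ± 0.16 at day 1 (adjusted p = 0.000271) and 4.32 ± 0.19 at day 5 (adjusted p = 1.74e-12), by edgeR. Malt1 also had the largest change of effect between days among the 10 genes, 3.31 ± 0.24 (adjusted p = 1.73e-08, edgeR).

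Of the 3 genes of the complex, Malt1 and Bcl10 were thus called higher at day 5 and Card9 lower. The ratio of Malt1 to Bcl10 CPM was 2.78 ± 0.925 in exposed and 1.7 ± 0.0856 in uninfected libraries at day 1, and 20.1 ± 3.23 in exposed and 1.29 ± 0.113 in uninfected libraries at day 5 (SD, n = 4 each). Malt1 to Card9 stood at 34.1 ± 17.4 in exposed and 1.09 ± 0.103 in uninfected libraries at day 5. These ratios carry the lengths of the transcripts and are comparable between groups, not between genes. How reads shared by close relatives within the Clec4 family were assigned is not stated in the sources used here.

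**Figure D3:**
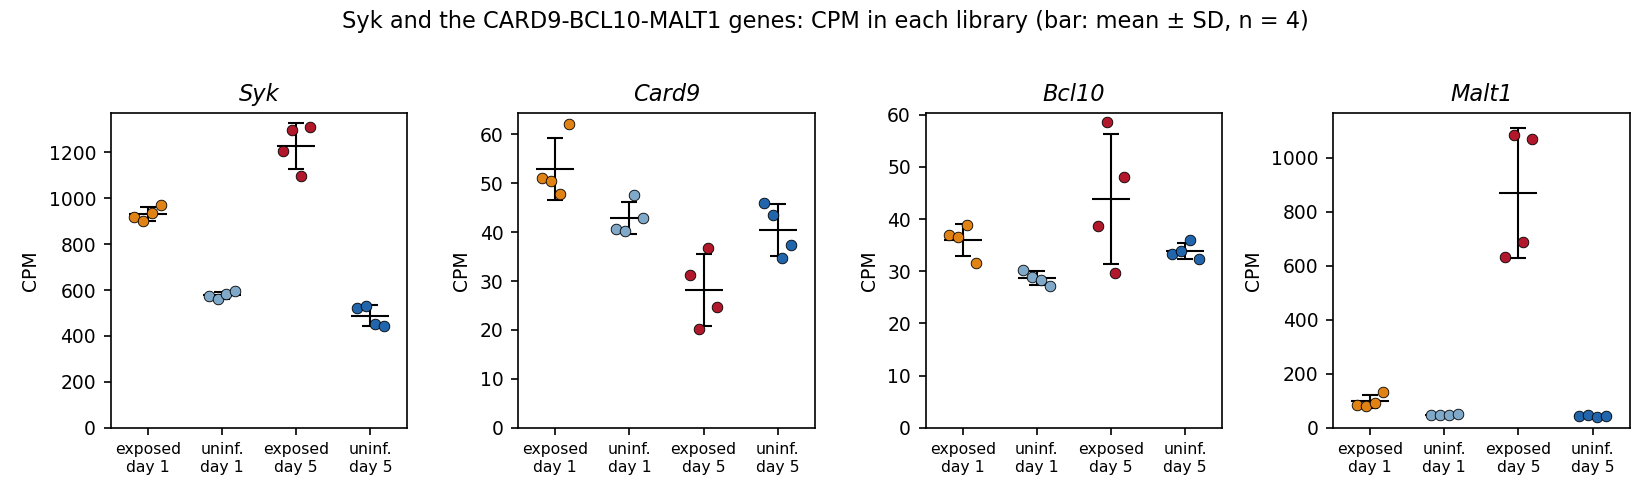
CPM of Syk, Card9, Bcl10 and Malt1 in each library, with the mean and 1 SD of each group as bars (n = 4, axes from 0, 1 scale per gene). Exposed day 5 libraries lie at 633 to 1083.8 CPM for Malt1 against 40.6 to 46.9 CPM in uninfected libraries, while for Card9 and Bcl10 the day 5 groups overlap.

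Tested directly, the exposure effect was larger at day 5 than at day 1 for 6 of the 10 genes, smaller or reversed for Clec12a and Card9, and not called different for Clec4n and Bcl10. Of all genes tested, 16.4% had a higher and 19.5% a lower effect at day 5. The change was 2.95 ± 0.34 for Clec4e (adjusted p = 6.67e-06), 2.72 ± 0.21 for Clec4d (adjusted p = 4.38e-08) and 1.70 ± 0.20 for Clec7a (adjusted p = 2.99e-06), by edgeR. It was smaller for Clec5a, at 0.69 ± 0.15 (adjusted p = 0.00148), and for Syk, at 0.64 ± 0.12 (adjusted p = 0.000501, edgeR). For Bcl10 it was 0.04 ± 0.20 (adjusted p = 0.89, edgeR).

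Within exposed cells, 6 of the 10 genes were higher at day 5 than at day 1 and Card9 was lower, against 25.6% and 25.2% of all genes tested. The log2 change was 3.15 ± 0.18 for Malt1, 3.08 ± 0.25 for Clec4e, 2.03 ± 0.15 for Clec4d, 1.49 ± 0.14 for Clec7a, 0.54 ± 0.11 for Clec5a and 0.40 ± 0.09 for Syk, with the largest adjusted p among them 0.000769 (edgeR). That of Clec4n was 0.00 ± 0.12 in size (adjusted p = 0.993, edgeR), with means of 48.2 ± 10 CPM at day 5 and 48.3 ± 3.74 CPM at day 1 (SD, n = 4 each). Clec12a, at -0.75 ± 0.32, did not pass the test with all libraries (adjusted p = 0.056, edgeR), and was called lower, at -1.34, without exposed day 5 replicate 3 (adjusted p = 2.96e-05). Without the same library Bcl10 was called higher, at 0.43 (adjusted p = 0.00178), against 0.28 ± 0.14 with all libraries (adjusted p = 0.0973, edgeR). In uninfected cells only Clec4d and Clec12a were called different between days, 1 lower and 1 higher, against 8.91% and 10.8% of all genes tested.

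The genes differed widely in level when CPM were divided by exonic length, taken as all exons of all annotated transcripts together. This length, 18040 bases for Malt1, can exceed that of the transcript expressed, so the order between genes depends on it. In uninfected day 5 libraries Clec7a was highest at 70.1 CPM per kb, followed by Syk at 52.2, Clec5a at 29.2 and then Card9 at 17.6 and Clec4n at 15.5, whose libraries overlapped. Clec4e at 4.66 and Malt1 at 2.41 CPM per kb were near the bottom of that order, above Clec12a at 0.898. In exposed day 5 libraries Clec7a at 379, Clec4e at 184 and Syk at 131 CPM per kb led the order, with the libraries of Clec7a and Clec4e, and those of Clec4e and Syk, overlapping. Malt1 had 48.2 CPM per kb there, above Card9 at 12.3 and Bcl10 at 9.59, whose libraries overlapped each other.

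The 4 exposed day 5 libraries differed more among themselves than other groups, with a median SD of log2 CPM of 0.399 for the 10 genes in exposed cells at day 5 and 0.135 in uninfected cells, against 0.299 and 0.148 over all genes tested. Replicates 2 and 4 had the highest levels of Clec4e, Clec4d, Clec5a, Syk, Bcl10 and Malt1 and the lowest of Card9 and Clec12a. Replicate 3 was instead highest in Clec4n, Clec7a, Clec12a and Card9. Replicates 2 and 3 carry another series of library codes than the other exposed day 5 libraries, and without both the day 5 log2 fold change was 5.04 for Clec4e, 3.83 for Clec4d, 2.09 for Clec7a and 4.29 for Malt1. Each of the 10 genes kept its direction and its call at day 5 without them, Clec12a at -1.65 and Card9 at -0.53 included. Uninfected day 5 libraries are all of 1 code series, so no comparison within the other series could be made.

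**Figure D4:**
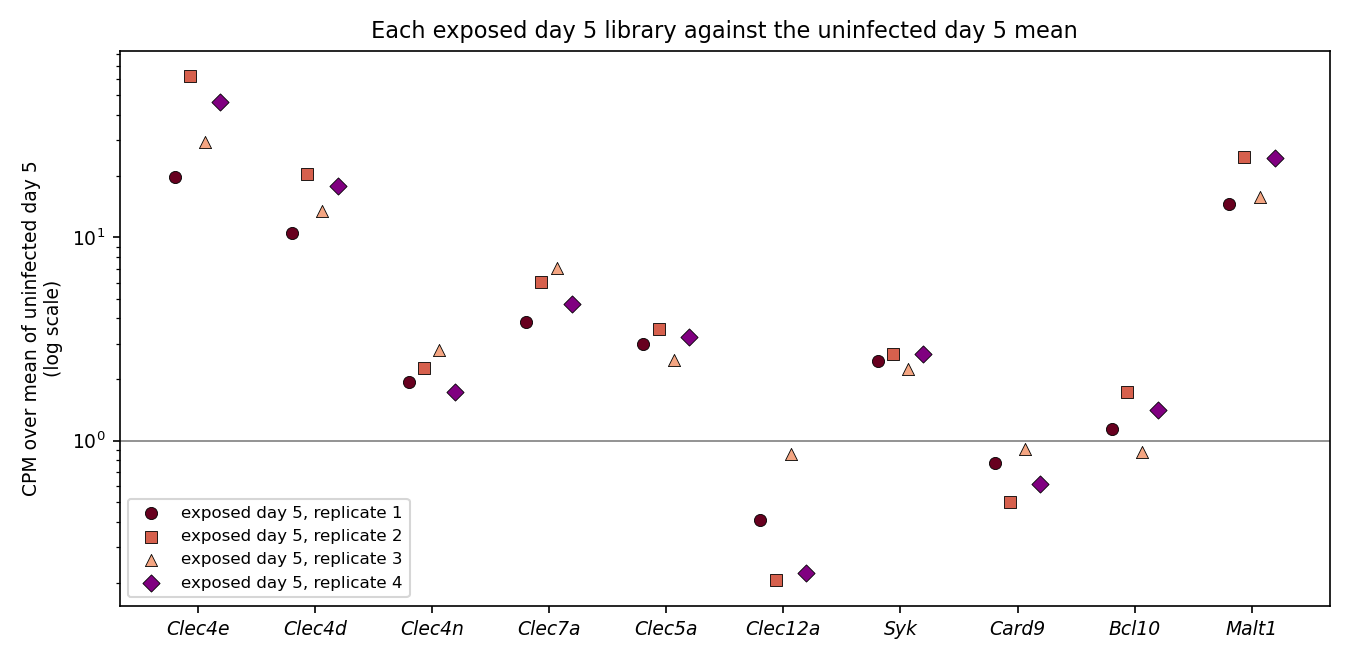
CPM of each exposed day 5 library over the mean of the 4 uninfected day 5 libraries, on a log axis, for the 10 genes, with a symbol per replicate and a line at 1. Malt1 runs from 14.5 to 24.9 and Clec4e from 19.8 to 62.2 times the uninfected mean, while Card9 and Clec12a lie below 1 in all 4 libraries.

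Among other C-type lectin receptors of myeloid cells, 21 of 35 were expressed enough to test. Of these, 8 (38.1%) were higher and 1 (4.76%) lower at day 1, against 13.4% and 10.5% of all genes tested. At day 5, 12 (57.1%) were higher and 5 (23.8%) lower, against 28.6% and 28.4% of all genes tested, with a median log2 fold change of 0.46 at day 1 and 0.99 at day 5. The low-count filter keeps a gene that reaches its cutoff in a single group. Genes near 0 in uninfected cells could thus enter through exposed cells alone, as Cd69 and Cd209d, the latter at 0.217 against 0.0595 CPM at day 5. These shares and medians are therefore a description only. Olr1, encoding the scavenger receptor LOX-1, averaged 1967.6 ± 459 CPM in exposed cells at day 5, against 432 ± 26.6 CPM in uninfected cells (2.19 ± 0.13 on the log2 scale, adjusted p = 6.22e-11, edgeR). Cd69, an early activation antigen, was at 3.04 ± 1.03 CPM in exposed cells at day 5, against 0.0509 ± 0.039 CPM in uninfected cells. Clec2d, whose product binds histones, had similar exposed levels on both days, 9.18 ± 1.19 CPM at day 1 and 9.11 ± 2.69 CPM at day 5, against uninfected means of 1.6 ± 0.162 and 2.94 ± 0.25 CPM. Clec4a3, a member of the Dectin-2 cluster, fell by 1.75 ± 0.11 on the log2 scale at day 5 (adjusted p = 1.16e-10, edgeR) and measured -0.00 ± 0.10 at day 1.

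All 23 adaptors and kinases next to the receptors were tested, and 7 (30.4%) were higher and 2 (8.70%) lower at day 1, against 13.4% and 10.5% of all genes tested. At day 5, 10 (43.5%) were higher and 9 (39.1%) lower, against 28.6% and 28.4% of all genes tested, with a median log2 fold change of 0.08 at day 1 and 0.06 at day 5. Fcer1g, the adaptor that Mincle, MCL and Dectin-2 signal through, averaged 305 ± 61.9 CPM in exposed cells at day 5, against 233 ± 5.87 CPM in uninfected cells, a log2 fold change of 0.39 ± 0.11 (adjusted p = 0.00432, edgeR). Tyrobp, encoding the DAP12 adaptor of Clec5a, was at 656 ± 124 CPM in exposed cells at day 5, against 631 ± 61.1 CPM in uninfected cells (0.06 ± 0.12, adjusted p = 0.697, edgeR). At day 1 it was called higher, at 725 ± 54.2 CPM in exposed cells, against 544 ± 30.7 CPM in uninfected cells (0.41 ± 0.12, adjusted p = 0.0149, edgeR), a call lost without uninfected day 1 replicate 4 (0.38, adjusted p = 0.0557). Prkcd, the kinase that phosphorylates CARD9, rose by 0.63 ± 0.10 at day 1 (adjusted p = 0.000258) and by 0.97 ± 0.10 at day 5 (adjusted p = 1.99e-07, edgeR). Blnk, an adaptor downstream of Syk, was at 59.3 ± 20.1 CPM in exposed cells at day 5, against 9.43 ± 1.82 CPM in uninfected cells. Pik3r5, a regulatory subunit of phosphoinositide 3-kinase, rose by 1.07 ± 0.07 at day 5. Pik3cd, a gene for a catalytic subunit of this kinase family, fell by 1.44 ± 0.09 (adjusted p = 6.61e-11, edgeR). Plcg2, a phospholipase downstream of Syk, fell by 0.54 ± 0.09 at day 5 (adjusted p = 3.13e-05, edgeR).

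Of 24 partners of the CARD9 complex on its route to NF-kB, 3 (12.5%) were higher and 1 (4.17%) lower at day 1, against 13.4% and 10.5% of all genes tested. At day 5, 8 (33.3%) were higher and 3 (12.5%) lower, against 28.6% and 28.4% of all genes tested. The shares of higher genes were near those of all genes on both days, with a median of 0.00 at day 1 and 0.05 at day 5. Nfkb1, encoding the p105 precursor of NF-kB, averaged 221 ± 72.8 CPM in exposed cells at day 5, against 48.5 ± 3.85 CPM in uninfected cells (2.19 ± 0.17 on the log2 scale, adjusted p = 4.09e-09, edgeR). Traf3, Traf2 and Rnf31, which encode ubiquitin ligases of NF-kB signalling, rose by 1.23 ± 0.09, 0.98 ± 0.09 and 0.99 ± 0.09 at day 5, with the largest adjusted p among them 2.02e-08 (edgeR). Traf6, a ligase that binds MALT1, rose by 0.45 ± 0.09 (adjusted p = 0.000343, edgeR).

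Of 20 negative regulators, 5 (25.0%) were higher and 2 (10.0%) lower at day 1, against 13.4% and 10.5% of all genes tested. At day 5, 8 (40%) were higher and 5 (25.0%) lower, against 28.6% and 28.4% of all genes tested, with medians of 0.12 at day 1 and 0.13 at day 5. Tnfaip3, the A20 ubiquitin-editing enzyme that MALT1 cleaves, averaged 376 ± 87.1 CPM in exposed cells at day 5, against 25.9 ± 1.65 CPM in uninfected cells. Its binding partner Tnip1 was at 327 ± 81.1 CPM in exposed cells at day 5, against 45.3 ± 1.34 CPM in uninfected cells. Cblb, a ligase that targets Syk-coupled receptors for degradation, and Pilra, an inhibitory receptor, rose by 0.99 ± 0.10 and 1.57 ± 0.12 at day 5, with the larger adjusted p 6.79e-08 (edgeR). Of 11 genes listed for proteins cut by the MALT1 protease, 5 (45.5%) were higher and 1 (9.09%) lower on each day, against 13.4% and 10.5% of all genes tested at day 1 and 28.6% and 28.4% at day 5. Relb, a member of the NF-kB family, rose by 2.72 ± 0.10 at day 5, Zc3h12a, encoding the RNase Regnase-1, by 2.15 ± 0.16 and N4bp1 by 0.59 ± 0.08, with the largest adjusted p among them 2.65e-06 (edgeR).

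Of 20 cytokines and early genes known to follow engagement of these receptors, 16 were tested. The 4 not tested, Il10, Il12a, Cxcl1 and Ptgs2, had 14, 2, 11 and 1 counts over all 16 libraries. Of these, 3 (18.8%) were higher and 1 (6.25%) lower at day 1, against 13.4% and 10.5% of all genes tested. At day 5, 12 (75.0%) were higher and 3 (18.8%) lower, against 28.6% and 28.4% of all genes tested. The median log2 fold change was 0.80 at day 1 and 5.15 at day 5, also when the genes with 0 uninfected counts were set to their bounds. The filter keeps a gene that reaches its cutoff in a single group. Genes near 0 elsewhere could thus enter through exposed day 5 alone, as Il12b at 2.56 against 0.0166 CPM and Csf2 at 6.46 against 0 CPM. For such genes the filter favoured a call of higher, so the day 5 share and median are a description only. Il1b had 786 to 2440.2 CPM in exposed cells at day 5, against 7.81 to 9.99 CPM in uninfected cells. Tnf averaged 688 ± 377 CPM in exposed cells at day 5, against 16.3 ± 0.591 CPM in uninfected cells. Ccl17, a chemokine for T cells, rose by 4.89 ± 0.32 at day 5 (adjusted p = 2.28e-10) and measured 0.09 ± 0.43 at day 1 (adjusted p = 0.903, edgeR). Egr1, an early gene of mitogen signalling, was lower, at 127 ± 24.1 CPM in exposed cells at day 5, against 485 ± 24 CPM in uninfected cells. Csf2, encoding GM-CSF, was at 0 counts in every uninfected day 5 library and at least 622-fold higher in exposed ones, taken against 3 counts over the uninfected group. The cells are kept in added GM-CSF, which these counts do not measure.

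**Figure D5:**
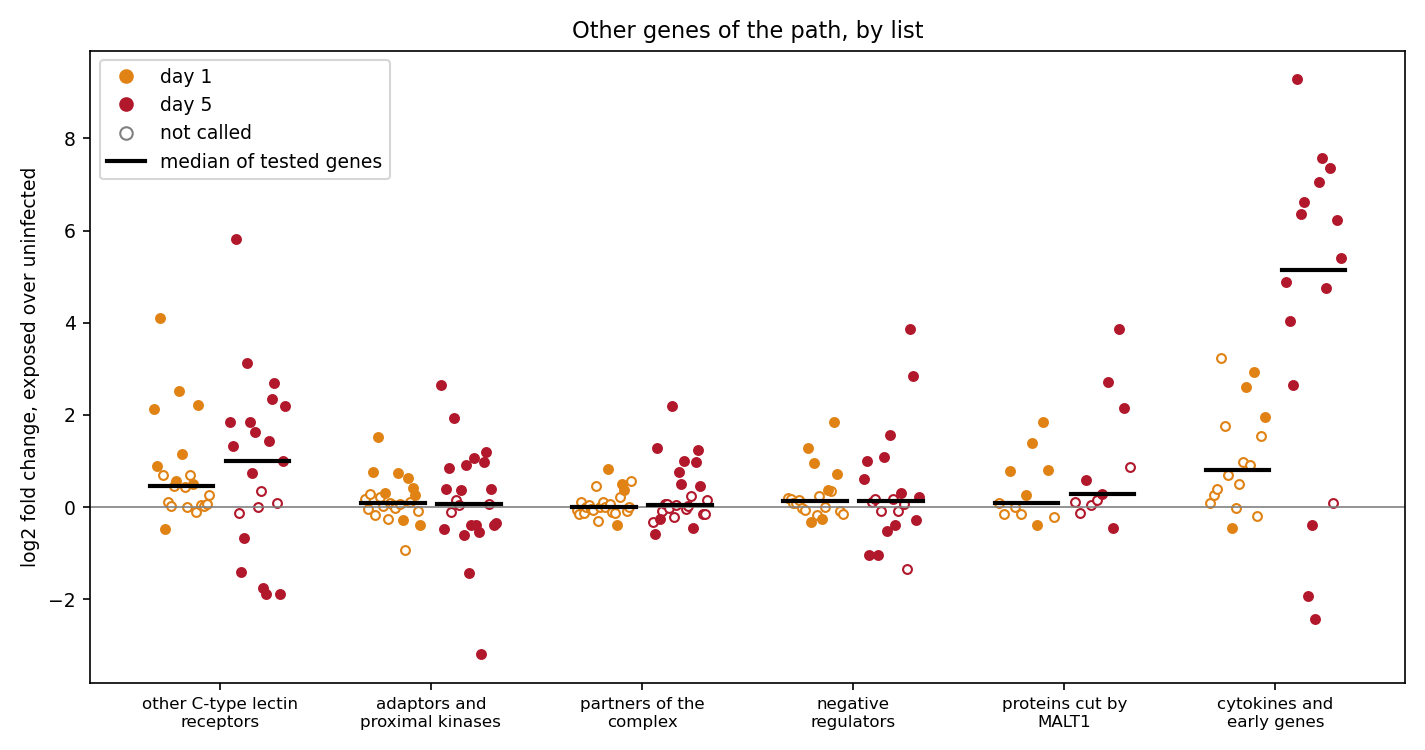
Log2 fold change, exposed over uninfected, of the tested genes of 6 lists of the path at day 1 (orange) and day 5 (red), with open points for genes that did not pass the test and a line at each median. Csf2 and Nos2 are drawn at their lower bounds where uninfected libraries had 0 counts. The cytokine list has a median of 5.15 at day 5, against 0.99 or less in the other lists. Some of its tested genes were near 0 outside exposed day 5.

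The genes whose log2 CPM followed each member most closely over the 16 libraries, among 9866 candidates, were found by Pearson correlation as a description, with 4 groups that share treatment and day as the main source of spread. For Clec4e they were Csf1r, Tnfaip3 and Tmem171 (r = 0.995, 0.994 and 0.992), and for Clec4d Ptafr, Tnip1 and Htra1 (r = 0.992, 0.991 and 0.991). Malt1 was followed by Inhba, Il1f6 and Tgif1 (r = 0.995, 0.994 and 0.993). Clec5a and Syk were each among the nearest 3 of the other (r = 0.991), with Clcn7 and Relb also close to Syk (r = 0.996 and 0.993). Clec7a had Tapt1 (r = 0.982) and Clec4n Pstpip2 (r = 0.945) as nearest genes. The closest gene to Card9 was Arhgap45 (r = 0.983), to Clec12a Plin4 (r = 0.926) and to Bcl10 Aig1 (r = 0.954).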

How the data were processed

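Polyadenylated RNA of 16 MPI-2 libraries had been sequenced. Per the submitters' processing notes, reads were handled with STAR on GRCm39, and versions and the annotation release are not given in the sources used here. The values the authors deposited are raw gene counts, found on checking to be whole numbers that sum to a different total per library. Symbols came from GENCODE M21 for 52083 of 55359 genes, and the others held 0.449% of counts. Promoter windows are from RefSeq, GRCm38.p6, an older build than that of the counts. CPM use TMM-scaled totals, and CPM per kb the exonic length in GENCODE M21, the union of exons over all transcripts of a gene.

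Genes passing filterByExpr (17190) entered 1 fit of all 16 libraries by the quasi-likelihood method, with robust estimates (edgeR 4.0.16 in R 4.3.3) and group means as the coefficients. The biological coefficient of variation in common was 0.149. Two-sided p-values took the Benjamini-Hochberg adjustment over all 17190 genes, with calls under 0.05. Errors of folds are SE of the fit, which assumes 1 dispersion per gene in all groups. Alternatives were DESeq2 1.42.0, limma-voom with group variances (limma 3.58.1), RLE size factors, other filters, fits on the libraries compared alone, a replicate block, each library left out and exposed day 5 without libraries of another code series. The tests were checked on simulated data. Figures used matplotlib 3.10.9.

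The members and lists were chosen with earlier results of these data known. From each of 6 lists the 4 genes with the smallest p are named, save 1 that is not reported here, and for likeness the 3 genes with the highest r and at least 5 CPM in their highest group (log2 CPM with a prior count of 2). Fcer1g, Tyrobp, Prkcd, Plcg2, Traf6, Csf2, Nos2, Il12b, Il10, Il12a, Cxcl1, Ptgs2, Mrc1, Cd302, Clec12b and Clec9a were named outside this rule, after their values were seen.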

Additional observations from a re-analysis of the deposited data

Results flagged for a closer look

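These results stand out because the exposure effect at day 5 and that at day 1 differed by a direct test (interaction in the edgeR fit, adjusted p under 0.05), among a background in which 16.4% of all genes tested had a higher and 19.5% a lower effect at day 5. Among the 10 genes the log2 change of effect, day 5 minus day 1, was 3.31 for Malt1, 2.95 for Clec4e, 2.72 for Clec4d, 1.70 for Clec7a, 0.69 for Clec5a and 0.64 for Syk, with Card9 at -0.82 and Clec12a at -1.98. Clec12a and Card9 were the genes whose exposed means lay above the uninfected mean at day 1 and below it at day 5.

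Among other receptors it was 1.92 for Olr1, 3.10 for Clec12b, 0.94 for Clec9a, -0.88 for Clec2d, -1.75 for Clec4a3 and -1.90 for Mrc1. Among adaptors and kinases it was 2.48 for Blnk, 0.35 for Pik3r5 and -1.49 for Pik3cd. For Nfkb1, Traf2 and Traf3 it was 1.74, 0.76 and 0.73, and for the regulators Tnip1, Tnfaip3, Cblb and Pilra 2.14, 2.02, 0.81 and 0.61. For Zc3h12a and Relb it was 1.34 and 1.33, and for Il1b, Ccl17, Tnf and Egr1 4.98, 4.80, 3.45 and -1.48. No library of the 10 genes lay outside Dixon's 95% limit in the 40 groups of 4 checked.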

How the results depend on the processing

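Of 850 values recomputed for the 10 genes, 819 kept their side of the threshold, 25 newly passed it and 6 no longer passed it. A change of direction with a call in either fit occurred in 0. Values near 0 that were called in neither fit could change sign and are among the 819. The change of effect between days ranged from -0.07 to 0.27 for Clec4n and from -0.13 to 0.19 for Bcl10. The 6 were all Bcl10 at day 5, with adjusted p of 0.0883 in the fit on the libraries compared alone and 0.0569 to 0.152 with 1 library left out (edgeR). At day 1 Clec12a, Card9 and Bcl10 passed with limma-voom (adjusted p = 0.000778, 0.0116 and 0.00212) and in the fit alone (0.00058, 0.0034 and 0.000452). The cause was not tested.

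In uninfected cells, day 5 against day 1, the 1 gene higher became 2 with limma-voom and in the fit alone. The 1 gene lower became 2 with DESeq2, RLE or a filter of 1 CPM in 4 libraries, 3 with limma-voom, 4 in the fit alone and 1 to 2 with 1 library left out. In exposed cells the 1 gene lower became 2 with DESeq2, limma-voom, the replicate block or without the other-code libraries of exposed day 5, and 1 to 2 with 1 library left out. Same-numbered libraries correlated from -0.151 to 0.148, over 0.1 in 3 of 24 pairs, and in 11 of 48 checks of a library against another group its own number was the best match, so the numbers were not taken as pairs. The replicate block changed no other count of the 10 genes and left 7 higher at day 1 and 8 higher at day 5.

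Over all genes, day 1 calls were 2297 higher and 1800 lower, against 3723 and 3428 with limma-voom and 3650 and 3371 in the fit alone. Uninfected day 5 against day 1 had 1853 higher and 1532 lower, against 3314 and 3071 with limma-voom and 3386 and 3038 in the fit alone, and as few as 1227 and 881 without uninfected day 5 replicate 4. Among the 10 genes Clec12a had the fewest counts, 64 to 437 per library.

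For the lists these alternatives were applied after seeing the data. At day 1 the genes called higher numbered 4 of the adaptors and kinases without uninfected day 1 replicate 4, against 7 with all libraries, and in the fit alone 9 negative regulators (5), 7 cytokines and early genes (3) and 5 partners of the complex (3). Partners called higher also numbered 5 with limma-voom and with a filter of 1 CPM in 4 libraries. Cytokines and early genes called higher numbered 5 with the replicate block. Those called lower at day 1 were 1 to 4 of the adaptors and kinases (2) and of the negative regulators (2), with 4 of each in limma-voom and the fit alone and 1 in 4 fits of the adaptors and 5 of the negative regulators that leave out 1 library. Partners, MALT1-cut genes and cytokines called lower at day 1 (1 each) numbered 2 of each in the fit alone. With limma-voom the partners and the cytokines called lower also numbered 2 each. At day 5 every list's count of higher genes stayed within 1.5 times, and the partners called lower were 5, against 3, and the MALT1-cut genes 2, against 1, without the other-code libraries.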

Other observations

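Other receptors of the family, chosen after their values were seen, went in both directions at day 5. Mrc1, the mannose receptor, averaged 102 ± 26.8 CPM in exposed cells at day 5, against 375 ± 65.2 CPM in uninfected cells (log2 fold change -1.88 ± 0.15, adjusted p = 5.42e-09, edgeR), with all exposed libraries below all uninfected ones. At day 1 it measured 0.02 ± 0.15 (adjusted p = 0.949, edgeR). Cd302, a receptor of phagocytic cells, was at 410 ± 94.9 CPM in exposed cells at day 5, against 164 ± 17.1 CPM in uninfected cells, and at 263 ± 16.2 CPM in exposed cells at day 1, against 141 ± 11.9 CPM in uninfected cells. Clec9a, a receptor for actin of dead cells, was at 25.3 ± 4.23 CPM in exposed cells at day 5, against 9.41 ± 0.968 CPM in uninfected cells. Beside it, the summed dendritic cell markers ranged from 13.8 to 17 CPM in exposed and from 8.8 to 9.85 CPM in uninfected day 5 libraries. That sum was nearly all Zbtb46 and Batf3, while Flt3 averaged 0, Xcr1 0.0229 and Siglech 0.0193 CPM in exposed cells at day 5. The part of these markers in the Clec9a level was not tested. Clec12b, an inhibitory relative of Clec12a, rose where Clec12a fell, to 1.23 ± 0.623 CPM in exposed day 5 libraries, against 0.137 ± 0.0477 CPM in uninfected day 5 libraries (3.12 ± 0.43 on the log2 scale, adjusted p = 4.71e-06, edgeR).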
